A study of Homo sapiens with 4 samples.

Results

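Both cultures of T84 cells that received a mix of microRNAs (miRNAs) were set against both cultures that received a control oligonucleotide, so the comparison takes in all 4 arrays of the series (4 of 4), with 2 on each side. T84, a line from a human colorectal carcinoma, makes polarised sheets of epithelium on permeable supports. The cells were grown on polycarbonate filters of 24 mm with pores of 0.4 µm and were transfected with 15 pmol of oligonucleotide, and total RNA of each group was hybridised to 1 Affymetrix U133 Plus 2.0 array. For the 2-miRNA array the mix was miR-451 with miR-338-3p. For the 4-miRNA array it was these and also miR-33a with miR-210, and both cultures were collected 5 days after transfection. The control arrays were of cells given a short RNA with little similarity to human miRNAs, collected after 5 days or after 7 days. Cell line, filter and transfection are shared by all 4 arrays, and no untransfected culture was analysed here. The labels do not say whether 15 pmol was the amount of each oligonucleotide or of a whole mix.

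The arrays of a side are not replicates. The miRNA arrays differ in their miRNAs, the controls differ in their day, and day 7 occurs on the control side alone, so the mixes were also set against each control by itself. No test is given, because the smallest p that an exact permutation of 2 against 2 arrays allows is 0.333. A signal below is the deposited MAS5 intensity scaled so that every array has a trimmed mean of 500. Where 4 signals follow each other they are those of the 2-miRNA array, the 4-miRNA array, the control of day 5 and the control of day 7. A difference is the mean of the mixes minus the mean of the controls on the scale of log2(signal + 32), which understates differences of dim genes. The gap is the lower array of the higher side minus the higher array of the lower side, on the same scale, and is negative where the mixes were lower. A gene is said to be separated 2-fold where the gap is 1 or more in size. Each of 12264 expressed genes is represented by its brightest probe set, a group of short probes for one transcript, and 5896 of the genes have 2 or more expressed probe sets.

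As deposited, the trimmed means were 147 and 150 on the miRNA arrays and 76.6 and 74.3 on the controls, while the highest signal was between 17832 and 18749 on every array. Array brightness and miRNA treatment coincide and cannot be told apart. After scaling, the median signal of all probe sets was 87.3 and 81.6 with the mixes and 99.3 and 99.0 in the controls, and the median difference over the expressed genes was −0.16. All 14 markers of colonic epithelium were at or above the array median on every array. Of markers for other cells, 3 of 8 for fibroblasts, 4 of 8 for leukocytes and 1 of 6 for endothelium were expressed. Their summed signals were 563, 509, 809 and 799 for fibroblasts, 854, 1071, 496 and 712 for leukocytes, and 357, 265, 343 and 435 for endothelium.

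miRNAs are short RNAs that guide Argonaute proteins to messenger RNAs, mostly through pairing of the seed near their 5′ end with sites in the 3′ end of the messenger, and thereby lower its level or its translation. miR-451 is processed by AGO2 without DICER1 and is best known from red cells. miR-210 is induced by the hypoxia-inducible factor HIF, miR-33a lies in an intron of SREBF2 and acts on cholesterol and fatty acid genes, and miR-338-3p lies in an intron of AATK. The mature sequences of 3 of the 4 miRNAs were found in the RefSeq set, and they are shown because they are agents of the mixes. Capitals mark the seed (bases 2 to 8), and coordinates are of GRCh38.p14. miR-338-3p is at chr17:81125887-81125908 on the minus strand, miR-33a at chr22:41900949-41900969 on the plus strand and miR-210 at chr11:568112-568133 on the minus strand.
hsa-miR-338-3p: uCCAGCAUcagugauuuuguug
hsa-miR-33a-5p: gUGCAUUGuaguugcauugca
hsa-miR-210-3p: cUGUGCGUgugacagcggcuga
No seed of the 3 is shared by another, and both mixes contain miR-338-3p and miR-451 while the 4-miRNA mix alone contains miR-33a and miR-210. Sites for the seeds in messenger RNAs were not searched here.

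Genes reported as targets of these miRNAs had medians near that of all genes: those of the 4 lists lay between −0.14 and 0.03, against −0.16 for all genes. Of 12 expressed reported targets of miR-338-3p, 5 lay above both controls on both mixes and 3 below, with a median difference of 0.01 (of all genes, 22.8% lay above and 41.0% below). MACC1, which activates the gene of the receptor MET in colon cancer, had signals of 899, 771, 225 and 297, a difference of 1.57 and a gap of 1.29, and was the member separated 2-fold, as 3.12% of all genes were in that direction. Its 3 probe sets differed by 0.17 to 1.57, and with the median over probe sets on each array its difference was 0.88 and the 2-fold separation was lost. Of 17 reported targets of miR-451, 4 lay above and 8 below, and their median of −0.14 turns to 0.08 when arrays are scaled to a common median. The lowest of them was the transcription factor MYC, with signals of 6865, 8080, 15161 and 11583, a difference of −0.83 and a gap of −0.52. CAB39, a partner of the kinase STK11 and one of the best known targets, had signals of 4264, 3987, 5019 and 5203 and a gap of −0.23. No reported target of miR-451 was separated 2-fold.

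The other pair of miRNAs was present on the 4-miRNA array alone, so the medians above for their targets take in an array without them. The median of the 4-miRNA array minus the 2-miRNA array was 0.037 over reported targets of miR-210. It was 0.066 over those of miR-33a and 0.004 over all genes. Of 18 expressed reported targets of miR-210, 4 lay above and 6 below, and none was separated 2-fold. EFNA3, an ephrin ligand, had signals of 395, 119, 259 and 366, so that the 4-miRNA array was the lowest of the 4 and the sides overlapped. ISCU, a scaffold for iron-sulphur clusters, had 7160, 5936, 7018 and 5622 and overlapped too. GPD1L, an enzyme that oxidises glycerol phosphate, was lower on both mixes (1800, 1671, 3057 and 2722, gap −0.59), including the mix without miR-210. Of 15 reported targets of miR-33a, 5 lay above and 3 below. The cholesterol exporter ABCA1 lay above the controls on both mixes (205, 216, 106 and 139, gap 0.47), and ATP8B1, a phospholipid flippase of the apical membrane, was separated 2-fold (3441, 3856, 1085 and 1460, gap 1.22). The other probe set of ATP8B1 differed by 0.09. The genes that host the miRNAs overlapped between the sides: AATK differed by −0.07, which turns positive when arrays are scaled to a common median, and MIR210HG by 0.27, with signals of 637, 681, 288 and 986.

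Over all expressed genes, 383 were separated 2-fold with the mixes higher (3.12%) and 67 with the mixes lower (0.546%). In most genes the sides did not overlap: 2802 genes lay above on both mixes (22.8%) and 5028 below (41.0%). These shares are the background for every count below of genes separated 2-fold, lying above or lying below. The means of the sides were 2-fold apart with the mixes higher for 697 genes (5.68%) and lower for 340 (2.77%). The difference of means was above 0 in 4725 genes (38.5%). The balance depended on the scaling: scaling to a common median moved the median difference to 0.06, gave 603 genes separated higher and 24 lower, and raised the share of higher genes among those that did not overlap from 35.8% to 57.7%. With 1 array fewer to hold, the genes separated higher and lower were 803 and 384 without the day 7 control, 567 and 164 without the day 5 control, 501 and 253 without the 4-miRNA array and 447 and 276 without the 2-miRNA array. Between the arrays of a side the typical difference was smaller. Its median size was 0.18 between the mixes and 0.27 between the controls, against 0.39 between the sides, and 291, 707 and 1037 genes were 2-fold apart (2.37%, 5.76% and 8.46%).

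**Figure D1:**
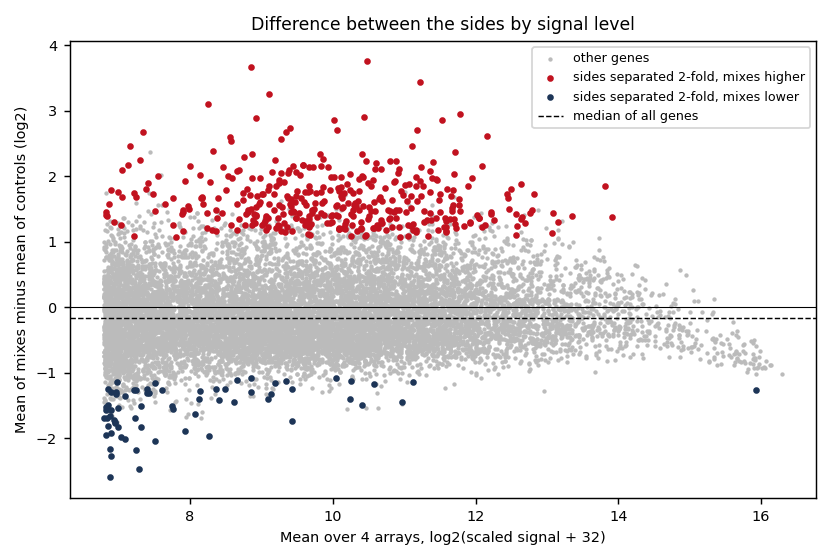
Difference between the means of the sides (vertical axis, log2) against the mean over the 4 arrays (horizontal axis, log2 of scaled signal plus 32) for 12264 genes, with genes separated 2-fold in red (383 higher with the mixes) and dark blue (67 lower). The higher genes spread over the middle of the range, most of the lower ones sit at its dim end, and the brightest genes fall below the dashed median of −0.16.

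Where the separated genes lie along the range of signal differed between the directions. When genes were ranked by mean signal and divided into 10 equal parts, 0.98% of the dimmest part was separated higher, 5.22% of the 7th part and 1.55% of the brightest. Of the dimmest part, 2.12% was separated lower, and in no part above it did that share exceed 1.06%. Of the 67 lower genes, 40 were under the array median on a mix, and 53 had a single expressed probe set. Of the 383 higher genes, 35 were under the array median on a control, and 140 had a single expressed probe set. At the top of the range the deposited signals reached a common upper end. Among 78 genes with a highest deposited signal of 10000 or more, the median log2 ratio of mixes to controls before scaling was 0.29, against 0.99 among 1302 genes between 1000 and 2500, and after scaling these medians were −0.69 and 0.01. Of those 78 genes, 88.5% lay below the controls on both mixes.

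FOLR1, the folate receptor that takes up folate by endocytosis, had the largest gap of the 12264 genes. Its signals were 4846, 5584, 383 and 331, and both mixes lay far above both controls (difference 3.75, gap 3.56). PARD6B, a scaffold of the apical PAR6 complex with atypical protein kinase C, had 1573, 1762, 196 and 107 (difference 3.25, gap 2.81). NCKAP1, a subunit of the WAVE complex that starts branched actin, had 7576, 8023, 646 and 735 (difference 3.44, gap 3.31). In each of these genes the arrays of a side lay close together beside the distance between the sides. FOLR1 and PARD6B each have 1 expressed probe set, and the other probe set of NCKAP1 differed by 0.28.

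RB1, the retinoblastoma protein that holds back E2F factors, led the genes whose expressed probe sets all lay above the controls. Its signals were 2616, 2932, 344 and 360, with a gap of 2.76. Its other probe set, which was dim, had 113, 140, 97.4 and 23.8 and a difference of 0.90. Of 385 genes with every one of 2 or more probe sets above the controls and a signal at or above the median on all arrays, 64 were separated 2-fold. After RB1 followed IFT80, a subunit of the transport particle of cilia (2123, 1902, 319 and 429, gap 2.07), REEP3, a membrane protein of the endoplasmic reticulum (2152, 1878, 350 and 444, gap 2.00) and CARNMT1, a methyltransferase that makes anserine from carnosine (2079, 1955, 398 and 465, gap 2.00). YES1, a kinase of the SRC family, had 4331, 3724, 914 and 902 with a gap of 1.99. PFDN4, a subunit of the prefoldin chaperone, had 5040, 5020, 954 and 1295 with a gap of 1.93. The next genes were NUDT12, SKIC3, VPS13A, FMR1, CAPZA2 and BLZF1, with gaps of 1.84, 1.80, 1.76, 1.71, 1.69 and 1.67. Beside the brightest probe set, another differed by 0.08 for CARNMT1 and 0.13 for SKIC3, but by 1.27 for FMR1 and 1.04 for CAPZA2. FMR1 encodes an RNA-binding protein of translation and CAPZA2 a cap of actin filament ends, and their 4 signals were 6387, 5817, 1752 and 1725, and 12642, 11679, 2986 and 3603.

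Among genes with a single expressed probe set and a signal at or above the median on all arrays, FOLR1 and PARD6B were followed by ACSL4. ACSL4, which activates arachidonic acid, had 1415, 1171, 129 and 166 with a gap of 2.60. PPIL4, a nuclear prolyl isomerase, had 1900, 1542, 212 and 247 with a gap of 2.50. CMC1, a factor of cytochrome oxidase assembly, had 5571, 6106, 1181 and 1265 with a gap of 2.11, and IFIH1, a sensor of double-stranded RNA, 723, 691, 128 and 145 with a gap of 2.03. RP2, a protein of ciliary membrane traffic singled out after its values were seen, had 1519, 1744, 78.9 and 120 and a gap of 3.35. Because RP2 was under the median of the day 5 control, its fold is given as a bound, at least 12.6-fold.

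**Figure D2:**
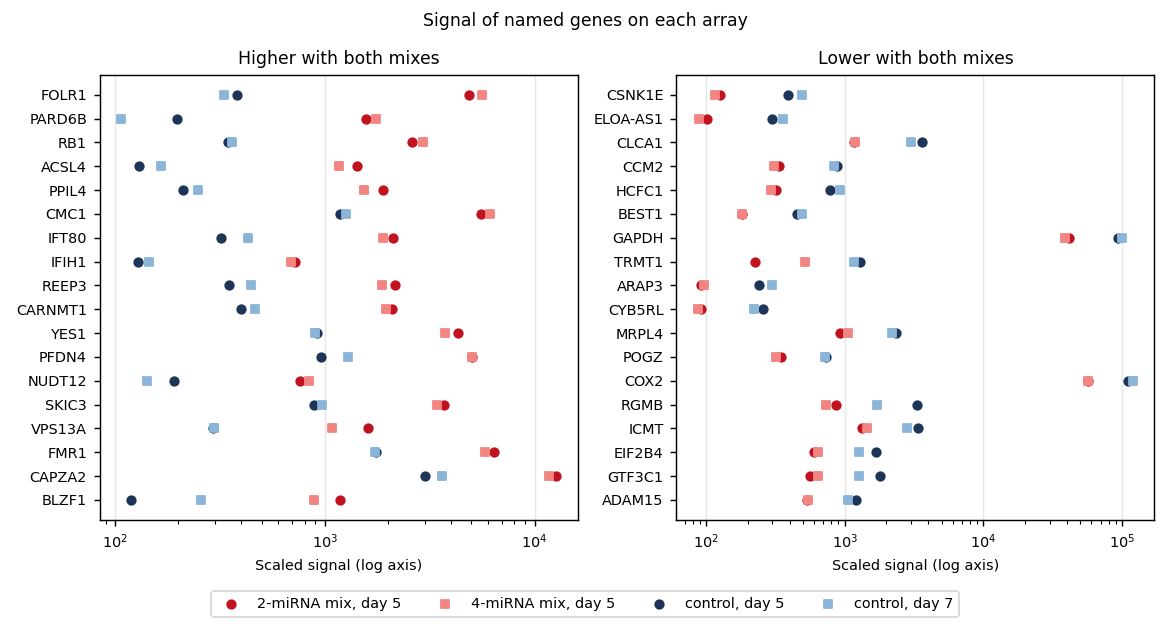
Scaled signal (log axis) on each of the 4 arrays of the genes with the largest gaps among those at or above the array median on all arrays whose probe sets all lay on 1 side or that have 1 probe set, as single points without error bars because each group had 1 array. On the left both miRNA arrays (red) lie to the right of both controls (blue), from FOLR1 with a gap of 3.56 to BLZF1 with 1.67, and on the right they lie to the left, at distances that are smaller.

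Genes lower with the mixes were separated by less. CSNK1E, a casein kinase of the circadian clock and of Wnt signalling, led those with agreeing probe sets, with signals of 126, 117, 393 and 493 and a gap of −1.43. TRMT1, which methylates a guanine of transfer RNAs, had 226, 521, 1281 and 1160 and a gap of −1.11. CYB5RL had 92.5, 87.8, 260 and 222 with a gap of −1.03, and MRPL4, a protein of the mitochondrial ribosome, 924, 1062, 2341 and 2182 with a gap of −1.02. These and GAPDH were the 5 genes separated 2-fold among 729 that were at or above the median on all arrays and whose 2 or more probe sets all lay below the controls. GAPDH, the glycolytic dehydrogenase, had 41316, 38846, 93268 and 99581 and a gap of −1.17, and its signals are among those at the upper end of the deposited range. Its gap was −0.51 under quantile normalization, −0.98 on a common median and −0.87 after running-median centring, so the 2-fold separation was lost under each. On a common median the gaps of TRMT1, CYB5RL and MRPL4 were −0.84, −0.86 and −0.75, while CSNK1E kept −1.26. COX2, the mitochondrially encoded oxidase subunit, was as bright (56909, 56428, 110264 and 119136, gap −0.95), and its difference changes sign under quantile normalization. POGZ, RGMB, ICMT, EIF2B4, GTF3C1 and ADAM15 had gaps between −0.99 and −0.91, just short of 2-fold.

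Of genes with 1 expressed probe set, CLCA1, a secreted protease of goblet cells, lay lower with the mixes at 1176 and 1189 against 3580 and 2998 (gap −1.31). ELOA-AS1, HCFC1, CCM2, BEST1 and ARAP3 had gaps of −1.31, −1.22, −1.26, −1.19 and −1.09, and on a common median those of BEST1 and ARAP3 were −0.94 and −0.86. HCFC1, a cofactor of transcription that binds chromatin-modifying enzymes, had signals of 319, 293, 785 and 932, and CCM2, a scaffold of the cerebral cavernous malformation complex, 335, 312, 878 and 844. The largest negative gaps of all were in dim genes, and they were picked after their values were seen: TRMT2A, another methylase of transfer RNA, had 14.7, 17.3, 283 and 232, and THTPA, a thiamine triphosphatase, 35.8, 32.8, 330 and 338. Both were under the median of both miRNA arrays, so their folds are bounds of at least 2.66-fold and 3.78-fold lower.

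Polarity and adhesion are what T84 sheets are studied for. Polarity rests on the PAR, Crumbs and Scribble protein complexes, on integrins that bind laminin of the basement membrane, and on junctions between neighbours. List members named below that were not taken by the rule for naming genes were chosen after their values were seen. Of 36 genes of polarity complexes and sorting, 7 lay above the controls and 23 below (19.4% and 63.9%, against 22.8% and 41.0% of all genes), with a median of −0.28. Their median was −0.18 against day 5 alone and −0.27 against day 7 alone, where that of all genes was −0.16 and −0.17. Separated higher were 2 of the 36 (5.56%, against 3.12% of all genes). Beside PARD6B, this was PATJ, a scaffold of the Crumbs complex, with 1558, 1672, 377 and 660 (gap 1.20), whose probe sets ranged from −0.13 to 2.02. Other members of the same complexes lay lower on both mixes: PARD3, the partner of PARD6B, had 1325, 1332, 1944 and 2407 (gap −0.53) with 4 probe sets from −0.69 to 0.02, and PARD6G had 78.5, 65.3, 126 and 120 (gap −0.46). PARD6G was dim, under the array median on both mixes, so the size of its difference is uncertain. PRKCI, the atypical kinase bound by PARD6B, had 4610, 3998, 5896 and 5651 (gap −0.29), with probe sets from −0.42 to 1.03.

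Of 21 integrin and laminin genes, 8 lay above and 8 below, and 4 (19.0%) were separated higher. ITGB8, an integrin that activates latent TGF-beta, had 1041, 709, 34.4 and 131 and was at least 5.40-fold higher. ITGA2, a collagen receptor chain, had 3188, 2918, 599 and 642 (gap 2.13). ITGA6, a laminin receptor chain, had 12931, 10889, 3775 and 4732 (gap 1.20) and ITGAV, the partner chain of ITGB8, 1908, 2054, 593 and 860 (gap 1.12). ITGA2 and ITGA6 each have another probe set, which differed by −0.29 and −0.41. ITGB1, the β1 chain that pairs with ITGA2 and ITGA6, had 18952, 18705, 14443 and 17284, with a difference of 0.25 and a gap of 0.11. Its 4 probe sets ranged from −0.18 to 0.60, so the direction of ITGB1 was not shared by all of them. The median of the list was −0.04, which turns positive under scaling to a common median and under a running median.

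None of 18 tight junction or 17 adherens junction and desmosome genes was separated 2-fold. Of the former 3 lay above and 8 below (16.7% and 44.4%), and of the latter 6 and 6 (35.3% each), against 22.8% and 41.0% of all genes. CDH1, the E-cadherin of adherens junctions, had 20366, 22035, 18470 and 22640, and the sides overlapped. The tight junction scaffold TJP1 lay slightly above (4330, 4413, 3005 and 3342, gap 0.37), as did OCLN, occludin (3502, 3781, 3188 and 3393, gap 0.05). TJP1 has another probe set that differed by −0.35. CLDN2, which forms a cation pore and marks leaky epithelium, was the member furthest below, with 745, 574, 3179 and 1239, a difference of −1.56 and a gap of −0.71. Here the controls themselves stood apart, day 5 above day 7. CTNNB1, β-catenin, had 4767, 3716, 1918 and 2398 (gap 0.62), with both probe sets higher by 0.81 or more.

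Of 20 WAVE and actin genes, NCKAP1 and SCIN were separated higher. SCIN, a severing protein of actin filaments, had 1189, 1734, 208 and 419 (gap 1.44), and its 3 probe sets all lay above the controls, by 0.54 to 2.16. Under quantile normalization, or with 16 added in place of 32, another probe set was the brightest, its difference was 0.55 and SCIN was no longer separated 2-fold. The other WAVE subunits did not share the position of NCKAP1: CYFIP1 overlapped (5964, 6986, 6887 and 7163), BRK1 lay slightly below (7545, 7243, 9472 and 7853), with a difference that turns positive on a common median, CYFIP2 was lower (152, 74.4, 220 and 281) and ABI1 higher (4346, 4415, 1882 and 2866, gap 0.60). The median of this list, −0.13, turns positive under 3 of the other scalings tried: quantile, common median and running median.

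Of 17 goblet and secretory genes, 10 lay below and 3 above (58.8% and 17.6%, against 41.0% and 22.8% of all genes), with a median of −0.51 that stayed negative under every scaling tried. Beside CLCA1, MUC2, the gel-forming mucin, had 497, 595, 907 and 1264 (gap −0.58), FCGBP, a mucus protein, 1657, 2337, 3556 and 6057 (gap −0.60) and ATOH1, the factor that sets secretory fate, 222, 316, 505 and 504 (gap −0.62). DEFA5, a defensin of Paneth cells, had 1018, 920, 3224 and 1833 (gap −0.83). LYZ, lysozyme, went the other way with 490, 462, 111 and 144 (gap 1.49). LYZ is on the leukocyte list too, and the other 3 expressed leukocyte markers, CD3E, CD79A and ITGAM, overlapped between the sides. In such bulk RNA, fewer cells of a type and less RNA per cell cannot be told apart. The trefoil peptide TFF3 overlapped, because its day 5 control was the lowest array and its day 7 control the highest (3663, 6021, 2696 and 12339). Of 17 absorptive colonocyte genes 12 overlapped, 5 lay below and none lay above: AQP8, a water channel, had 709, 1183, 286 and 4950, and SLC26A3, the chloride exchanger, 794, 1365, 223 and 3417. In both genes the mixes lay between the controls, and the median of day 7 over day 5 in the list was 0.94.

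All 6 expressed metallothioneins, which bind zinc and copper, had negative differences, with a median of −0.91, and 5 lay below both controls. MT2A had 1545, 1406, 3512 and 2634 (gap −0.76) and MT1G 927, 740, 1652 and 1838 (gap −0.81). The paralogs are close in sequence and their probe sets may share signal. None was separated 2-fold.

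**Figure D3:**
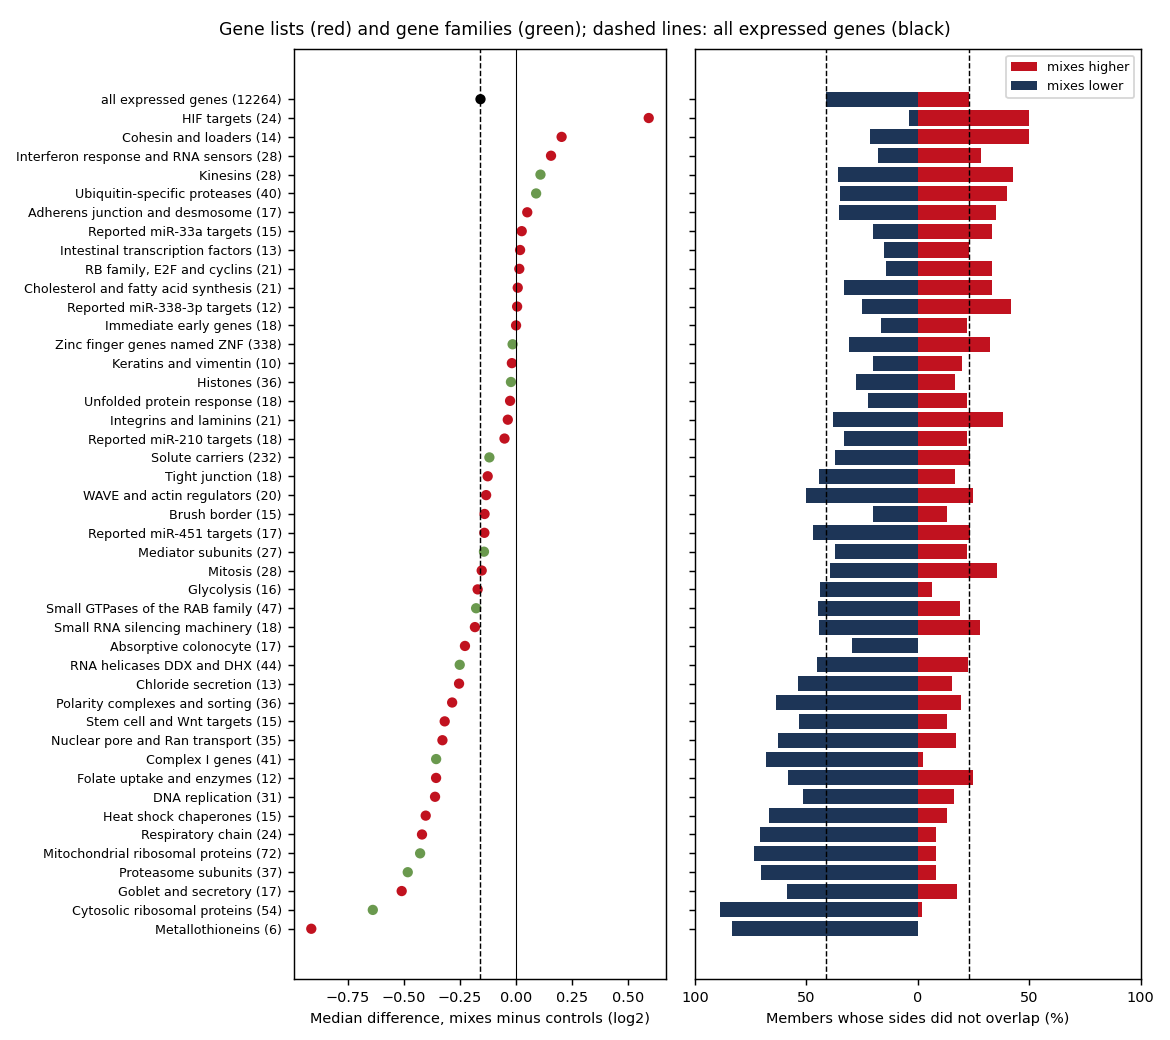
Median difference (left, log2) and share of members whose sides did not overlap (right, percent, lower to the left and higher to the right) for gene lists and families, with the number of expressed members in brackets. HIF targets lie furthest right at a median of 0.59, metallothioneins furthest left at −0.91, and the dashed lines mark all genes at −0.16, 41.0% lower and 22.8% higher.

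Lists of cell cycle and nuclear genes held members on both sides. RB1 was joined by its relatives RBL1, with 408, 505, 193 and 195 (gap 0.96), and RBL2, with 3967, 4300, 1238 and 2288 (gap 0.79), although each has a probe set with a negative difference, of −0.11 and −0.29. CCND1, cyclin D1, lay above as well (1307, 1398, 893 and 704, gap 0.53) with both probe sets positive, while E2F1 to E2F3 overlapped between the sides. Of 21 genes of this list, RB1 alone was separated 2-fold (4.76%). Of 31 DNA replication genes, 16 lay below and 5 above (51.6% and 16.1%, against 41.0% and 22.8% of all genes), with a median of −0.36. Their median was −0.46 against day 5 alone and −0.22 against day 7 alone, where that of all genes was −0.16 and −0.17. Between the controls, day 7 over day 5, it was −0.29. CDC45, which starts the replicative helicase, had 495, 375, 1061 and 916 (gap −0.85) and MCM7, a helicase subunit, 3970, 3898, 8442 and 5820 (gap −0.55). PCNA, the sliding clamp, overlapped (13993, 11873, 15457 and 12458), and CDT1, a licensing factor, lay above (1809, 2121, 748 and 1021, gap 0.81) with its other probe set at −0.83. None of the replication genes was separated 2-fold.

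Of 14 cohesin genes and loaders, 7 lay above and 3 below. RAD21, the kleisin that closes the cohesin ring, was separated by 2.39 (11891, 10779, 1645 and 2029), while its other probe set differed by −0.04. Its partners in the ring overlapped or differed little by their brightest probe sets: SMC3 had 2975, 2657, 3077 and 2724, and SMC1A 6121, 6760, 5499 and 5440 (gap 0.15). Their probe sets ranged from −0.04 to 1.29 for SMC3 and from −0.62 to 0.23 for SMC1A. MAD2L1, the spindle checkpoint protein, had 11621, 11362, 4358 and 4035 (gap 1.38), with probe sets from −0.21 to 1.45, and was the 1 of 28 mitosis genes separated 2-fold. Of 35 nuclear pore and Ran genes, 22 lay below and 6 above (62.9% and 17.1%, against 41.0% and 22.8% of all genes). Their median was −0.46 against day 5 alone and −0.26 against day 7 alone, where that of all genes was −0.16 and −0.17. NUP160 was separated higher (3004, 2205, 1054 and 944, gap 1.04), with its 3 probe sets from −0.03 to 1.34. NUP93, which anchors the inner ring of the pore, was the lowest, with 941, 865, 3823 and 1861 (gap −0.96).

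Among 18 genes of the small RNA machinery, AGO4 was separated higher (1071, 992, 298 and 381, gap 1.31), with both probe sets positive, though the gap was 0.45 by their median. DICER1, which cuts miRNA precursors, lay above (2756, 1940, 1034 and 1142, gap 0.75) with its 3 probe sets at 0.09 to 1.34. AGO1 lay below (864, 870, 1712 and 1430, gap −0.70) with probe sets from −0.83 to 0.19, and XPO5, which exports miRNA precursors from the nucleus, lay below with all 3 probe sets negative (918, 911, 2147 and 1414, gap −0.61). Of 28 interferon and RNA sensor genes, 8 lay above and 5 below with a median of 0.16, and IFIH1 was separated 2-fold (3.57%). Interferon-induced genes beside it showed no such distance: ISG15 overlapped (1161, 1091, 1132 and 980), as did MX1 (314, 306, 190 and 325), while OAS1, which makes the activator of RNase L, lay above (1978, 1773, 969 and 1081, gap 0.70) with its other probe set at −0.02.

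Few members of the metabolic lists were separated 2-fold: HK2 higher and GAPDH lower of 16 glycolysis genes, and HMGCS1 and ACSL4 higher of 21 genes of cholesterol and fatty acid synthesis, of which 7 lay above and 7 below. HK2, the inducible hexokinase, was separated higher by its brightest probe set (3611, 4204, 1120 and 982, gap 1.66), but its 3 probe sets ranged from −0.84 to 1.86, and taking the median over probe sets on each array gave −0.85. HMGCS1, an early enzyme of cholesterol synthesis, had 2786, 2744, 1045 and 1294 (gap 1.07), with its other probe set at −0.25. INSIG1, which holds sterol-sensing proteins in the endoplasmic reticulum, lay above (7175, 8363, 2643 and 4129, gap 0.79) with all 3 probe sets positive. In the folate list FOLR1 alone was separated 2-fold: of 12 genes, 3 lay above and 7 below (25% and 58.3%, against 22.8% and 41.0% of all genes), among the latter SLC19A1, the reduced folate carrier (387, 421, 818 and 730, gap −0.75). Of 24 respiratory chain genes, 17 lay below and 2 above (70.8% and 8.33%), with none separated 2-fold. Of 15 heat shock genes, 10 lay below and 2 above (66.7% and 13.3%). Their median was −0.63 against day 5 alone and −0.19 against day 7 alone, where that of all genes was −0.16 and −0.17. CHORDC1, a co-chaperone of HSP90, was separated higher (7387, 5095, 2123 and 1747, gap 1.25) and HSF1, the master factor of the heat shock response, lower. HSF1 had 18.5, 128, 334 and 343, at least 2.60-fold lower, its other probe set differed by 0.00, and its gap of −1.19 was −0.95 on a common median.

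Apart from the list of leukocyte markers, with 4 expressed genes, HIF targets had the highest median of the lists under each scaling tried, and most of its calls against day 5 did not hold against day 7. HIF is a transcription factor that is stable when oxygen is low and that raises genes of glucose uptake, glycolysis, vessel growth and its own hydroxylases. Of 24 expressed targets, 12 lay above both controls and 1 below, with a median difference of 0.59, and 4 were separated 2-fold (16.7% against 3.12% of all genes). Against the day 5 control alone, both mixes were 2-fold higher in 13 of the 24 (6.55% of all genes), and against the day 7 control in 4 (4.62% of all genes). The median of day 7 over day 5 was 0.99 for the controls. The mixes lay above day 5 by a median of 1.24 and above day 7 by 0.11.

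The 4 separated targets differed in this respect. PFKFB3, which makes the activator of phosphofructokinase, had 1239, 1368, 355 and 359, so that the controls were alike and the gap was 1.70. It has 1 expressed probe set, so agreement between probe sets could not be seen. SLC2A3, a glucose transporter, had 529, 605, 164 and 148 (gap 1.51), with all 3 probe sets higher by 1.18 or more. PDK1, the kinase that shuts pyruvate dehydrogenase, had 3249, 3108, 572 and 1334 (gap 1.20), with the day 7 control between day 5 and the mixes and its other probe sets down to 0.16. ERO1A, an oxidase of the endoplasmic reticulum, had 7645, 7960, 2182 and 3801 (gap 1.0), with probe sets from −0.06 to 1.43. The other strong day 5 differences were absent or small against day 7: EGLN3, a prolyl hydroxylase of HIF, had 1414, 2011, 273 and 1381 (gap 0.03), BNIP3, a mitophagy receptor, 17487, 19295, 6740 and 17134 (gap 0.03), and VEGFA, the vessel growth factor, 6248, 6992, 2081 and 4091 (gap 0.61). The 4 probe sets of VEGFA ranged from −0.38 to 1.17, and with the median over them on each array its difference was −0.36, the opposite direction. NDRG1 and ADM overlapped, with day 7 the highest array in each (15112, 18993, 6872 and 22544, and 6177, 7162, 3331 and 9092).

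**Figure D4:**
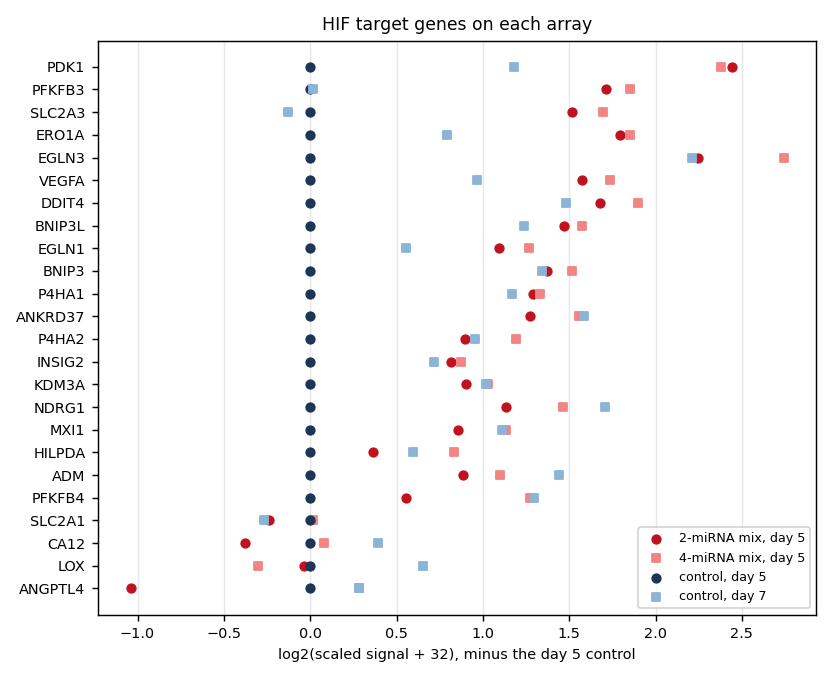
Each HIF target's log2(scaled signal + 32) on the 4 arrays, minus its value on the day 5 control (horizontal axis), ordered by the difference between the sides. For PFKFB3 and SLC2A3 the day 7 control sits near 0 and both mixes (red) far to its right, while in 11 of the 24 targets the sides overlap.

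The dependence on the control was general. Of 803 genes that were 2-fold higher on both mixes than on day 5, 383 (47.7%) were also 2-fold higher than on day 7, and these 383 made up 67.5% of the 567 higher than on day 7. Of 384 genes lower than on day 5 (3.13% of all genes), 67 (17.4%) were also lower than on day 7, and these 67 made up 40.9% of the 164 lower than on day 7 (1.34%). These comparisons share the miRNA arrays.

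Large gene families held members on both sides. Of 338 zinc finger genes named ZNF, mostly DNA-binding repressors, 109 lay above and 105 below (32.2% and 31.1%), and 24 were separated higher (7.10%, against 3.12% of all genes) and 4 lower (1.18%, against 0.546%). As with the metallothioneins, probe sets of related genes may share signal, so the 24 may not be separate measurements. ZNF468 had 2385, 2075, 632 and 607 and ZNF140 1896, 1830, 610 and 655. ZNF518A had 1303, 1080, 423 and 412, with both probe sets higher by 1.44 or more. Of the 24, ZNF44, ZNF107, ZNF146, ZNF493, ZNF506, ZNF654, ZNF711, ZNF736 and ZNF776 were not separated 2-fold by the median over their probe sets. The 4 lower genes, ZNF625, ZNF668, ZNF771 and ZNF837, have 1 expressed probe set each and were under the array median on a mix. Of the higher genes, ZNF440, ZNF485, ZNF493, ZNF623 and ZNF850 were under the array median on a control. With 64 added in place of 32, ZNF440, ZNF485, ZNF493 and ZNF616 lost the 2-fold separation, as did ZNF625, ZNF668 and ZNF837 of the lower. On a common median the gaps of ZNF625, ZNF668 and ZNF837 were −0.91, −0.86 and −0.96. Of 27 Mediator subunits, which bridge factors to RNA polymerase II, MED4 (2264, 2074, 731 and 708, gap 1.46) and MED23 (2310, 1564, 254 and 624, gap 1.28) were separated higher (7.41%). The family as a whole lay near all genes, with 6 above and 10 below (22.2% and 37.0%) and a median of −0.14. Both probe sets of MED4 were higher, by 1.55 and 1.74, while those of MED23 ranged from −0.27 to 2.16. Of 40 ubiquitin-specific proteases, USP8 and USP38 were separated higher (5%) and USP20 lower (2.5%). USP20, with 1 expressed probe set, was under the median of both miRNA arrays (53.9, 19.2, 209 and 249) and was at least 2.40-fold lower. The other probe set of USP38 differed by −0.01.

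Families of abundant housekeeping proteins lay lower. Of 54 cytosolic ribosomal proteins 48 lay below, with a median of −0.64 and 51 with a deposited signal of 5000 or more on an array. The median over the few others was 0.29. These include RPL10L, which was separated higher (445, 476, 172 and 204), and they are too few to speak for the family. Under quantile normalization the whole family stood at −0.01. Of 72 mitochondrial ribosomal proteins, which were not among the bright genes, 53 lay below and 6 above, with a median of −0.43 that was −0.20 on a common median. MRPL19 was the member separated higher (2974, 2201, 983 and 1080), with all 3 probe sets positive, and its gap of 1.01 was 0.97 under quantile normalization. Of 37 proteasome subunits 26 lay below and 3 above (median −0.48), and of 41 genes of respiratory complex I and its assembly 28 lay below and 1 above (median −0.36). Of the 10 housekeeping genes used for reference, 9 lay below and none above. The part of array brightness in these shifts was not tested.

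Probe sets of the same gene often disagreed on the difference between the sides. Of 243 genes separated higher that have 2 or more expressed probe sets, 67 (27.6%, Wilson 95% interval 22.3 to 33.5, for counting error alone) had every probe set above the controls, against 396 of all 5896 genes (6.72%). In 69 of the 243 (28.4%) at least 1 other probe set lay below both controls. By the brightest probe set alone 41.0% of all genes lay below, and the like share over all genes with 2 or more probe sets was not counted. Of 14 genes separated lower, 6 (42.9%, Wilson interval 21.4 to 67.4) had every probe set below, against 739 of 5896 (12.5%). The representative probe set of a called gene was in part chosen by its own value, and the call already puts it on the counted side. The 5896 genes include those whose representative lay elsewhere. The distance between the shares of called genes and of all genes is therefore in part built in, and these shares are descriptions. PTP4A1, a phosphatase, was separated by 2.81 (10171, 9357, 1164 and 1306), while its probe sets ranged from −0.24 to 2.95. REST, the repressor of neuronal genes, had 1609, 1285, 318 and 321 on its brightest probe set and 121, 35.2, 242 and 196 on the other, a difference of 2.06 on the first and −1.30 on the second. Among the genes described here, beside the zinc finger genes listed above, AGO4, ATP8B1, CYB5RL, ERO1A, FAR1, GOLIM4, HK2, HMGCS1, HSF1, ITGA2, ITGA6, MACC1, MAD2L1, MED23, MRPL4, MRPL19, NUP160, PATJ, PDK1, PTP4A1, REST, SCIN, SKIC3, USP8 and USP38 were not separated 2-fold by the median over their probe sets. FUBP3 (−0.49 to 2.91), GOLIM4 (−0.53 to 2.86), FAR1 (−0.09 to 3.80) and ZNF44 (−1.59 to 1.77) disagreed to a like degree. The probe set at −1.59 for ZNF44 was dim on the mixes (57.0 and 19.1). That at 3.80 for FAR1 was dim on the day 5 control (52.5). These signals are under the array medians, so the sizes are uncertain.

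The disagreement was larger between the sides than within them. Among 2625 genes with a pair of probe sets whose mean log2 reached 9, the standard deviation specific to a probe set was 0.53 for the difference between the sides, 0.18 between the mixes and 0.27 between the controls. The standard deviation shared by the pair was 0.33, 0.14 and 0.26. Across these genes, which are not independent replicates, the differences of the paired probe sets correlated at r = 0.28 between the sides, 0.39 between the mixes and 0.48 between the controls. The disagreement was also repeatable. Its value in the 2-miRNA array against day 5 correlated at r = 0.84 across the 2625 genes with its value in the 4-miRNA array against day 7, a pair of comparisons with no array in common. The differences of all 12264 genes correlated at 0.60 between the same comparisons. That set includes genes with a mean log2 under 9, so these correlations are of unlike sets. What the arrays of a side share apart from their oligonucleotide, such as brightness, moves with it, and its part in the disagreement was not tested.

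**Figure D5:**
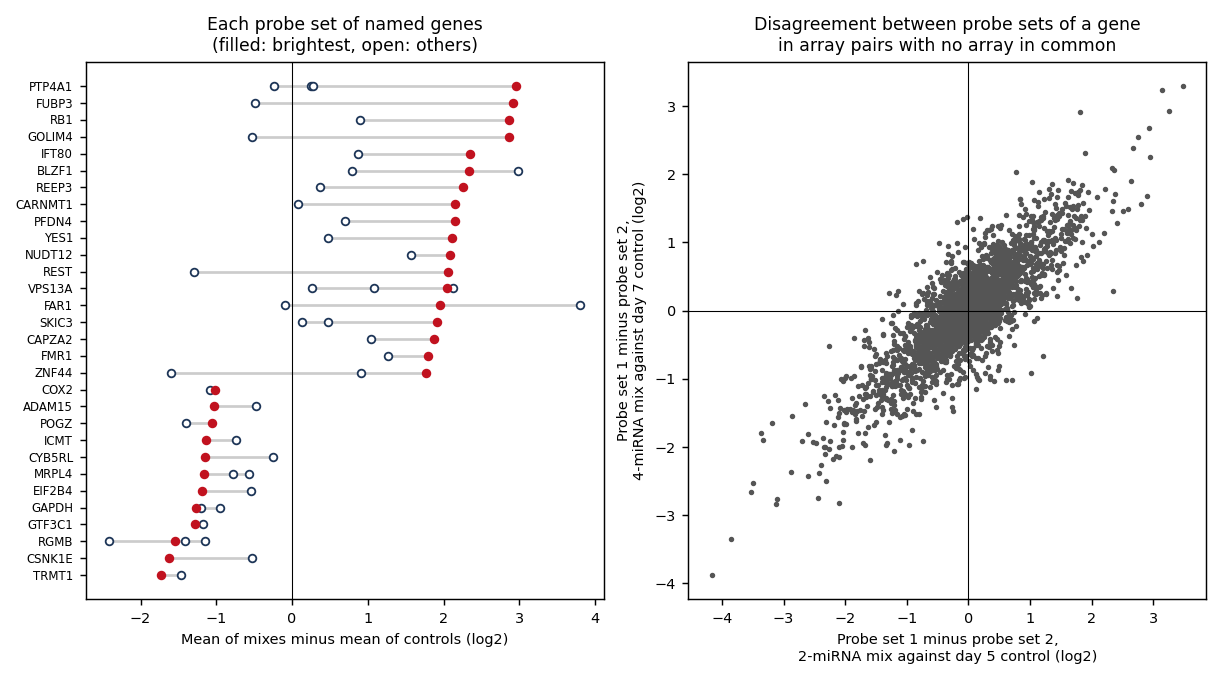
Left, difference of the sides (log2) for every expressed probe set of named genes, filled for the brightest and open for the others; right, disagreement of a gene's pair of probe sets in 2-miRNA minus day 5 (horizontal) and 4-miRNA minus day 7 (vertical, both log2) for 2625 genes. The points of the right panel follow the diagonal (r = 0.84), and in the left panel PTP4A1, FUBP3, GOLIM4, REST and ZNF44 have probe sets on both sides of 0.

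The ratio of 3′ to 5′ probe sets, a measure of how intact the RNA was, overlapped between the sides for ACTB (2.28, 1.97, 2.11 and 2.33) and was slightly lower with the mixes for GAPDH (0.962, 0.951, 1.02 and 0.978). The 9 hybridisation controls were, after scaling, at 0.953 and 0.822 of the day 5 control with the mixes and at 1.18 on day 7. Of the probe sets for 28S ribosomal RNA, those for the 5′ part (4653, 4036, 1448 and 1548 after scaling) and the middle (6420, 4498, 2333 and 3180) were brighter with the mixes, while the dim one for the 3′ part overlapped (83.9, 24.8, 35.6 and 52.0). Of those for 18S, the 5′ part (1596, 1586, 1337 and 2492) and the middle (2627, 1629, 1160 and 2207) overlapped, and the 3′ part had 2803, 2123, 1136 and 2099, with the mixes above by a narrow margin. Their part in the differences above was not tested. Genes separated higher, lower and not separated had similar promoters in base composition, with a median GC content of 65%, 63.5% and 65% in the RefSeq promoter windows of GRCh38.p14, found for 325, 50 and 9583 of them.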

How the data were processed

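Total RNA of T84 cells was hybridised to Affymetrix U133 Plus 2.0 arrays, 1 per group. The deposited table holds an intensity for 54675 probe sets on 4 arrays. Per the submitters' processing notes, MAS5 made the deposited intensities. The sources used here do not give its version, its scaling target or any batch. The depth of an array has no count, so the number of arrays limits the precision.

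Every array was multiplied by a factor that brought its 2% trimmed mean to 500, and 32 was added before log2. Names came from the platform annotation: 41091 probe sets had 1 symbol, 41037 of them matched by gene ID to the RefSeq gene table of GRCh38.p14, 1801 had several and were left out, 11721 were unnamed here and 62 were control probe sets. Expressed probe sets were those whose mean log2 was not under the overall median, or whose signal was at the 75th percentile of any array, and all 12264 genes were kept by the mean. The brightest probe set stood for its gene. Sides were compared by the difference of means and by the gap, called at 1 or more in size. Alternatives were an added constant of 16 or 64, quantile normalization, scaling to a common median, centring on a running median, a stricter filter or none, the median over probe sets, leaving out each array in turn and leaving out bright genes. The calculation was tested on simulated data. Python 3.11.15, NumPy 2.4.6 and pandas 2.3.3 were used.

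Genes were named by rule: the 12 largest gaps of each sign among genes at or above the median on all arrays whose 2 or more probe sets all lay on 1 side, the 6 largest of each sign among genes at or above the median on all arrays with 1 probe set, list members separated 2-fold, the 6 called genes with the widest disagreement of probe sets, and always ITGB1, CDH1, TJP1, OCLN, CLDN2, GAPDH, ACTB, HIF targets and reported targets. A further part, for genes under the median on 1 side and at or above the 75th percentile on the other, took no gene. ACTB was lower by its 3 probe sets (difference −0.79, and −0.11 under quantile normalization). Families were taken by symbol, without antisense transcripts, pseudogenes and genes that share a prefix alone. The 38 gene lists, 12 families and all members were chosen with earlier results of these data known.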

Additional observations from a re-analysis of the deposited data

How the results depend on the processing

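No paired analysis was possible because each group has 1 array and the labels number no replicates. Under every alternative tried no gene separated one way was separated the other way. Leaving out an array, leaving out bright genes or dropping the filter could not have reversed a call, so there this held by construction. Genes separated higher numbered 383, and 603 on a common median and 447 to 803 with 1 array left out. Genes separated lower numbered 67, and 34 with 64 added in place of 32, 24 on a common median, 37 after running-median centring, 26 with a filter at the 70th percentile, 215 without a filter and 164 to 384 with 1 array left out. Under the same alternatives, in that order with the leave-one-out range last, the means were 2-fold lower in 201, 150, 217, 139, 926 and 397 to 673 genes, against 340. On a common median the means were 2-fold higher in 1069 genes and 3024 genes lay below without overlap. The median over probe sets kept 183 of the 383 and 56 of the 67. The share of higher genes with every probe set above was 39.0% on a common median, 40.4% with the 70th percentile filter, 19.9% without a filter and 31.8% to 45.6% with 1 array left out; that of lower genes was 12.5% with a running median, 20.2% without a filter and 48.3% to 58.3% with 1 array left out. By the median over probe sets HK2 stood at −0.85 and NUP160 at −0.029. Without genes of a deposited signal of 5000 or more, an alternative chosen after seeing the data, the few cytosolic ribosomal proteins that were left stood at 0.29. The 4 leukocyte markers stood at 0.56, at −0.079 with 16 added and at −0.038 without a filter. Of 50 list and family medians 21 changed sign under at least 1 of the 3 other scalings, 18 of them on a common median, and 31 did under any alternative. Of 147 named genes 16 and 44 did, most of which overlapped between the sides, and HK2 and NUP160 were those separated 2-fold. The cause of these changes was not tested. With 1 array per group, variation between cultures, transfections and RNA preparations was not measured.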
